A study of Mus musculus with 11 samples.

Results

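The 4 adult globin genes Hba-a1, Hba-a2, Hbb-bs and Hbb-bt, and Alas2, are described here as 5 of the 35814 gene symbols counted in 11 RNA-seq libraries of renal CD4+ T cells. They were picked by name, with earlier results of these libraries in view, so their levels and the differences between genotypes are given as a description. Where a fit over all genes called a member, the call is stated as part of that fit and is no test of the members. All libraries came from the kidneys of male C57BL/6 mice on day 2 after ischemia–reperfusion injury (IRI), in which blood flow to the kidney is stopped by a clamp and then restored, and no uninjured mouse was among them. CD4cre mice (n = 3; genotype labelled WT) carried Cre recombinase under the CD4 promoter and served as controls. CD4IKK1 mice (n = 5) carried the same Cre and floxed alleles of Chuk, which encodes the kinase IKK1, and are labelled as IKK1 knockout. CD4NIK mice (n = 3) carried it with floxed alleles of Map3k14, which encodes the kinase NIK upstream of IKK1, and are labelled as NIK knockout. The CD4 promoter drives Cre from the double-positive thymocyte stage, so the deletion is not limited to mature CD4+ cells. The labels number the libraries of a genotype as biological replicates, and every group shares the injury and the Cre.

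Adult haemoglobin is a tetramer of a pair of alpha chains and a pair of beta chains, each holding one haem group, and in red blood cells it carries oxygen. Alas2 encodes the erythroid form of 5-aminolevulinate synthase, which catalyses the first step of haem synthesis in red cell precursors. Circulating mouse red cells have no nucleus, reticulocytes still hold globin mRNA, and a mature T cell is not known as a source of it. The transcription factors GATA1 and KLF1 drive the globin genes and Alas2 in erythroblasts.

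On the GRCm39 assembly, all the globin genes have 3 exons. Hba-a1 (ENSMUSG00000069919, chr11:32233186-32234504) and Hba-a2 (ENSMUSG00000069917, chr11:32246168-32247320) lie on the plus strand of chromosome 11. Hbb-bs (ENSMUSG00000052305, chr7:103475730-103482989) and Hbb-bt (ENSMUSG00000073940, chr7:103461727-103465047) lie on the minus strand of chromosome 7. Alas2 (ENSMUSG00000025270, chrX:149330371-149353634) has 11 exons on the plus strand of the X chromosome. The coding sequences of Hba-a1 and Hba-a2, both of 429 bases with the stop codon, differed at 1 base, C381T, the third base of codon 127. Those of Hbb-bs and Hbb-bt, both of 444 bases, also differed at 1 base, C417T, the third base of codon 139. In these substitutions the first letter is the base of Hba-a1 or Hbb-bs, and positions are counted from the A of the start codon. The stretches around these bases are shown because they hold the only coding difference by which a read can be given to one copy. The differing base is in capitals.
Hba-a1, coding bases 361 to 401: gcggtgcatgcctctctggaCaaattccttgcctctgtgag
Hba-a2, coding bases 361 to 401: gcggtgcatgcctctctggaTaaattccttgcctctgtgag
Hbb-bs, coding bases 397 to 437: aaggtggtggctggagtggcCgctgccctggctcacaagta
Hbb-bt, coding bases 397 to 437: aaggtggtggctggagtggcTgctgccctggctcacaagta

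Of the stretches of 31 bases in the coding sequence of Hba-a1, 92.2% also occur in Hba-a2, and of those of Hbb-bs 93.2% also occur in Hbb-bt. Over whole transcripts the shared part was 82.8% for Hba-a1 and larger still for the shorter Hba-a2, but 63.1% for Hbb-bs and 59.3% for Hbb-bt, whose untranslated ends differ more. The division of counts between the 2 copies of a chain is therefore uncertain, and the sum over the copies is given beside the single genes.

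The promoters of the members are shown as background, and their part in the levels was not tested. The stretches shown are the 250 bases before the RefSeq start (table of GRCm38.p6), placed on GRCm39 by exact match and printed 5′ to 3′ on the strand of the gene. The RefSeq starts lie inside the gene spans given above. The globin stretches therefore fall within those spans, and the Alas2 stretch crosses the start of its gene. The Hba-a1 stretch matched at both alpha genes. The Hba-a2 stretch is the same sequence shifted along, with 247 of its 250 bases shared and no base differing, so it is not printed. Capitals mark 4 motifs on either strand: GATAA or TTATC (the core bound by GATA factors), CACCC or GGGTG (the core bound by KLF factors), CCAAT or ATTGG, and TATAA or TTATA, which overlap each other in places.
Hba-a1, chr11:32233422-32233671, plus strand: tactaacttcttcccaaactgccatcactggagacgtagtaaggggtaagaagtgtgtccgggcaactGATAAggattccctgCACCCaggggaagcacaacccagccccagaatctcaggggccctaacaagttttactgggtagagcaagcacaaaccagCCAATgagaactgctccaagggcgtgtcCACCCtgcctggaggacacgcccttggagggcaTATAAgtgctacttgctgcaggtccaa
Hbb-bs, chr7:103477136-103477385, minus strand: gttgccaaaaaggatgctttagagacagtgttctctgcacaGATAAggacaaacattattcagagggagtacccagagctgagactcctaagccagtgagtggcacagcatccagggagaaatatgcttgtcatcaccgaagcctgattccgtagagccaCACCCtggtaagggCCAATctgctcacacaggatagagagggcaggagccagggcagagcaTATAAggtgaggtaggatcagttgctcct
Hbb-bt, chr7:103463131-103463380, minus strand: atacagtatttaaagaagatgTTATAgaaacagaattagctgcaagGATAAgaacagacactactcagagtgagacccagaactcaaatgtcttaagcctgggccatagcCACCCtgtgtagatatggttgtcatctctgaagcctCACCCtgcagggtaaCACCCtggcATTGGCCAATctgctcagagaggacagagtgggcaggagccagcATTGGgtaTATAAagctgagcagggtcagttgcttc
Alas2, chrX:149330163-149330412, plus strand: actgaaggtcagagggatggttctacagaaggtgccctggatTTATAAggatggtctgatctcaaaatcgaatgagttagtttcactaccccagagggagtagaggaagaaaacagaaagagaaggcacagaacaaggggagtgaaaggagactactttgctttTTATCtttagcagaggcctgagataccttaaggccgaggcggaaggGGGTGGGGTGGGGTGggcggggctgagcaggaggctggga

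All 4 motifs were found in the promoters of the 4 globin genes, and in 314 of 32536 mouse promoters of this length (1.0%). Alas2 held 3 of them and lacked the CCAAT box in this window. The GATA motif alone was found in 22.5% of these promoters, the KLF motif in 52.1%, the CCAAT box in 33.8% and the TATA motif in 22.7%. In the globin promoters the TATA motif nearest the start began 27 to 30 bases before it, whereas in Alas2 it began 207 bases before the start. These are matches of letters and say nothing of binding.

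Library totals lay between 15751632 and 25737046 estimated counts. Levels are given as CPM, the counts of a gene scaled to a common library total with TMM factors. Chuk measured 16.3 to 33.2 CPM in CD4cre and 15.2 to 26.4 CPM in CD4IKK1, and Map3k14 14.7 to 19.6 CPM in CD4cre and 12.9 to 30.8 CPM in CD4NIK, so the targeted transcripts overlapped with the controls in their own knockouts. In CD4IKK1, Map3k14 measured 1.86 to 9.23 CPM, under every CD4cre library (log2 fold change -1.58, FDR 0.148 by edgeR), so it was low in the libraries labelled IKK1 knockout and not in those labelled NIK knockout. These counts sum over all transcripts of a gene, including any that lack a floxed exon. The label CD4+ T cell was checked against 15 T cell markers, whose summed level was 1451 to 2734 CPM in CD4cre, 15.9 to 1354 CPM in CD4IKK1 and 7936 to 11589 CPM in CD4NIK. In the library labelled CD4IKK1 replicate 1, Trac was counted once and Cd4 measured 2.05 CPM. Over the same libraries 15 neuronal markers summed to 5472 to 6606, 7087 to 8000 and 1753 to 3839 CPM. This goes against the labelled cell type in every group, most in CD4cre and CD4IKK1, where the neuronal sum was above the T cell sum. In CD4NIK the neuronal marker Gap43 averaged 932.0 CPM and Cd4 355.3 CPM. The fold changes of the globins are therefore also given without CD4IKK1 replicates 1 and 2, the lowest in T cell markers. Single list genes, list sums and likenesses were not recomputed without these libraries.

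The 4 globins together made up 0.0533% to 0.733% of the counts of a library. They measured 2348 ± 305 CPM (SD, n = 3) in CD4cre, 884.0 ± 438 CPM (n = 5) in CD4IKK1 and 3804 ± 3781 CPM (n = 3) in CD4NIK. The CD4cre libraries held 2078, 2678 and 2288 CPM, and the CD4IKK1 libraries 675.6, 623.9, 527.2, 1603 and 989.8 CPM. The CD4NIK libraries held 1190, 2083 and 8140 CPM. Every CD4IKK1 library lay under every CD4cre library, replicates 1 to 3 of CD4IKK1 were the lowest of all 11, and the mean of CD4NIK rested on its replicate 3. That library held 4.97 times the mean of the other CD4NIK libraries, which without it averaged 1636 ± 632 CPM (n = 2). In bulk libraries, fewer red cells and less globin RNA per cell cannot be told apart.

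**Figure D1:**
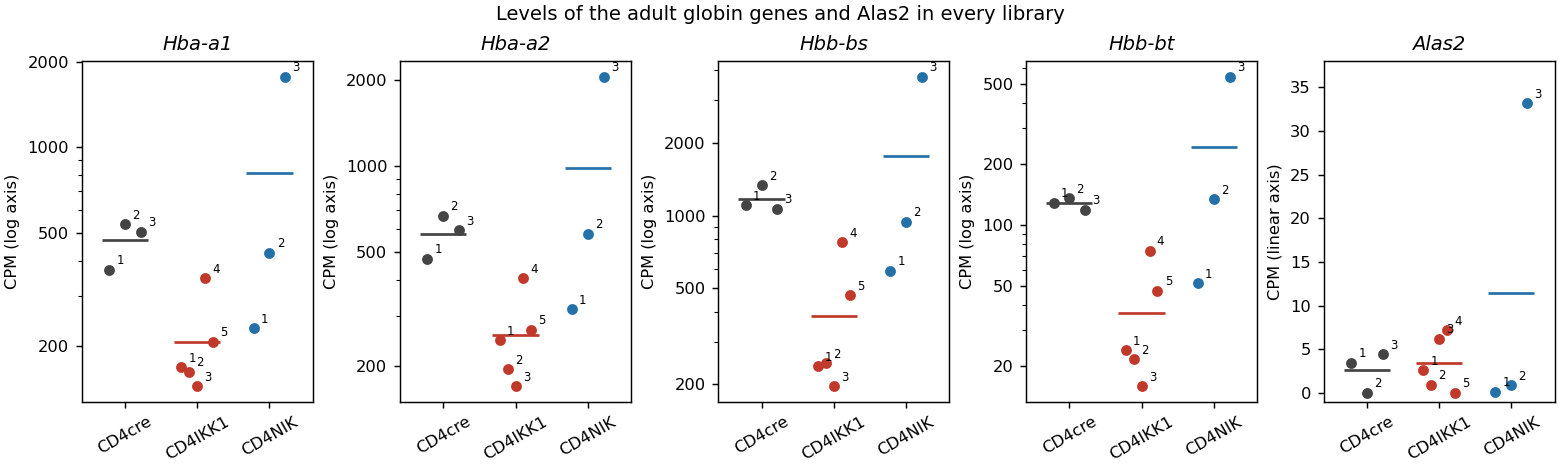
Level of each globin gene (CPM, log axis) and of Alas2 (CPM, linear axis) in every library; points are libraries with their replicate number, and lines are group means. For the globins every CD4IKK1 point lies under every CD4cre point, and CD4NIK replicate 3 is the highest point in all 5 panels.

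Hbb-bs, a beta chain gene, had the highest mean CPM of the members in each group. It measured 1104, 1337 and 1067 CPM in CD4cre, 237.3, 245.3, 196.7, 776.0 and 467.4 CPM in CD4IKK1, and 591.3, 943.2 and 3768 CPM in CD4NIK. Against CD4cre the fitted log2 fold change in CD4IKK1 was -1.60 ± 0.47 (SE), a level 3.04-fold lower. The 2 groups did not overlap, and the highest CD4IKK1 library, replicate 4, was still under the lowest CD4cre library.

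Hbb-bt, the second adult beta chain gene, was the lowest globin in every library. It measured 128.6, 135.5 and 119.0 CPM in CD4cre, 24.0, 21.6, 15.9, 74.6 and 47.2 CPM in CD4IKK1, and 51.3, 133.7 and 542.2 CPM in CD4NIK. The CD4cre libraries were within 1.14-fold of each other, the CD4IKK1 libraries within 4.70-fold and the CD4NIK libraries within 10.6-fold. Its log2 fold change in CD4IKK1 against CD4cre was -1.80 ± 0.46, the lowest among the members.

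The alpha chain genes showed the same order of groups. Hba-a1 measured 370.8, 536.0 and 504.9 CPM in CD4cre, 168.4, 162.7, 144.7, 347.2 and 207.5 CPM in CD4IKK1, and 230.9, 426.7 and 1774 CPM in CD4NIK. Hba-a2 measured 474.7, 669.5 and 597.2 CPM in CD4cre, 245.9, 194.3, 169.9, 405.4 and 267.6 CPM in CD4IKK1, and 316.3, 579.5 and 2056 CPM in CD4NIK. For both alpha genes the CD4IKK1 and CD4cre libraries did not overlap, and replicate 4 was again the highest of CD4IKK1. Against CD4cre the log2 fold changes were -1.19 ± 0.28 for Hba-a1 and -1.18 ± 0.26 for Hba-a2.

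In CD4IKK1 against CD4cre, 4 of the 5 members were lower without overlap, beside 8.44% of the 15653 genes tested that were lower in this way; nothing is read from this, since the members were picked with such values in view. By edgeR's quasi-likelihood test (FDR under 0.05 and more than 2-fold) 0 of the 5 members and 0% of all genes were called, with 2592 genes (16.6%) at an unadjusted p under 0.05. DESeq2 called 486 genes (3.10%) at an adjusted p under 0.05 and more than 2-fold, of which 457 (2.92%) were lower; the 4 globins were among them. Without CD4IKK1 replicate 4, the highest of its group in these same globins, edgeR called 23 genes, all lower. Hba-a1 (-1.46), Hba-a2 (-1.40) and Hbb-bt (-2.23) were among them. Without CD4IKK1 replicates 1 and 2 no globin was called, and the log2 fold changes were -1.02 for Hba-a1, -1.05 for Hba-a2, -1.29 for Hbb-bs and -1.48 for Hbb-bt.

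In CD4NIK against CD4cre the globins ranged from 0.58 ± 0.59 for Hbb-bs to 0.91 ± 0.69 for Hbb-bt on the log2 scale. The groups overlapped for each member, beside 23% of the 15209 genes tested that were higher without overlap, and 0 of 5 members were called, beside 17.4% of all genes. Without CD4NIK replicate 3 the direction turned: -0.52 for Hba-a1, -0.38 for Hba-a2, -0.61 for Hbb-bs and -0.47 for Hbb-bt. The log2 differences of this comparison thus take their sign from 1 library.

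Between the knockouts, CD4IKK1 was lower than CD4NIK by a log2 fold change of -1.97 ± 0.56 for Hba-a1, -1.94 ± 0.51 for Hba-a2, -2.20 ± 0.63 for Hbb-bs and -2.72 ± 0.71 for Hbb-bt. The fit across all genes called these 4 lower, beside 18.5% of the 16546 genes tested that were called lower and 33.3% called in either direction. Nothing is read from these calls, since the members were picked with such values in view. The groups overlapped for every member, beside 24.6% of all genes that were lower without overlap, since CD4NIK replicate 1 lay under CD4IKK1 replicate 4. Without CD4NIK replicate 3 the values were -0.67, -0.80, -0.99 and -1.33 in the same order, and none was called. Without CD4IKK1 replicates 1 and 2 they were -1.79, -1.80, -1.87 and -2.39, with Hba-a1 no longer called. The comparisons share the CD4cre or knockout libraries, so they are not independent of each other.

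**Figure D2:**
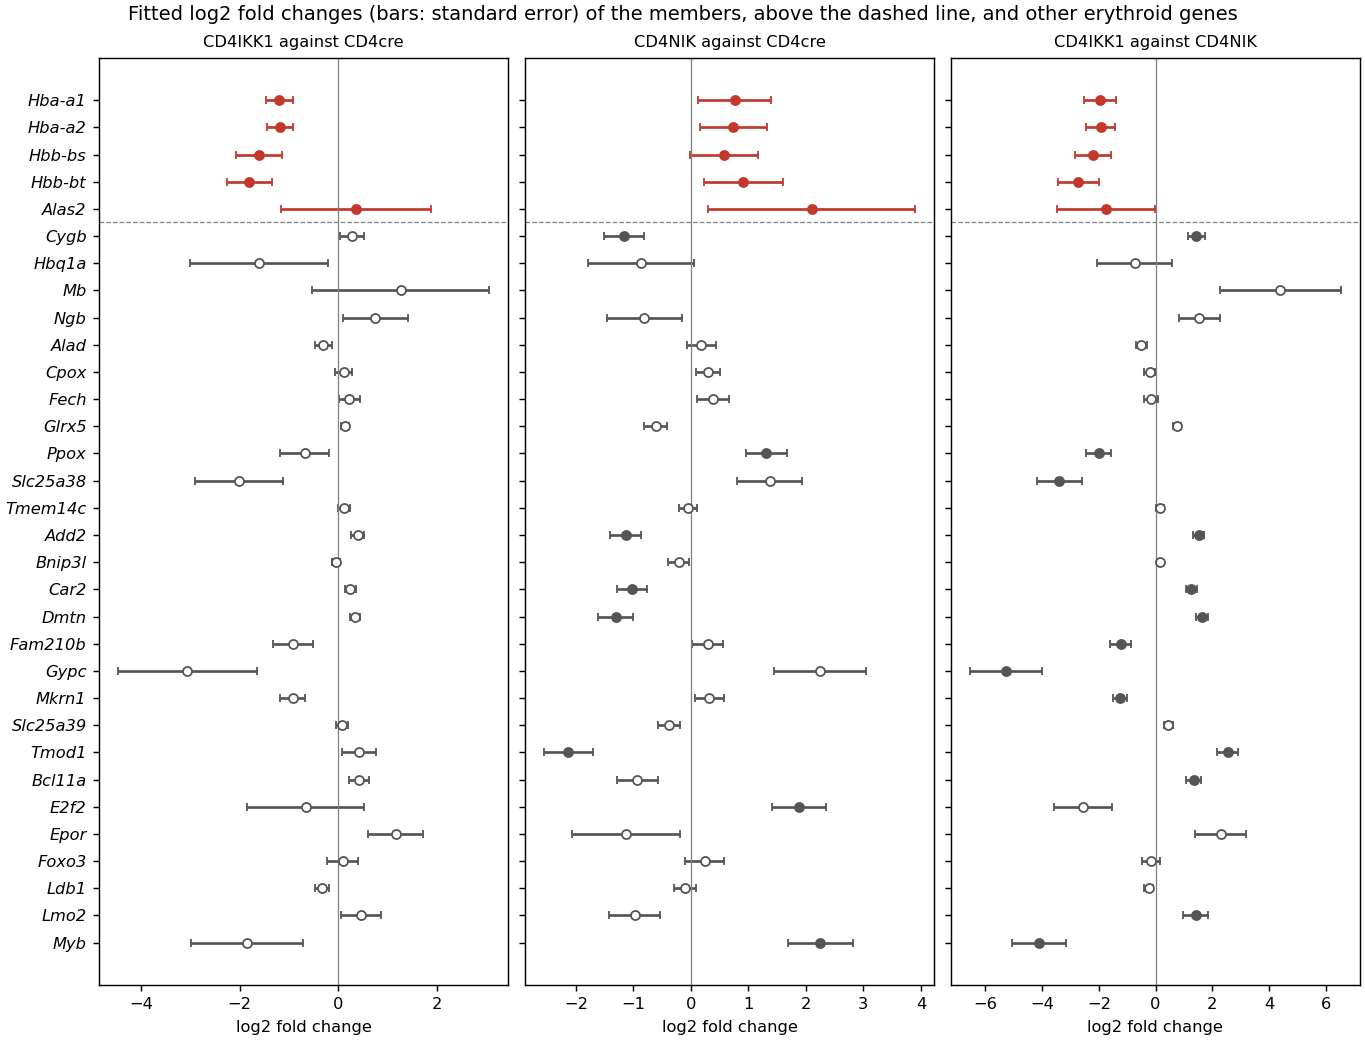
Fitted log2 fold changes with standard errors in the 3 comparisons; red points above the dashed line are the members, and grey points are other erythroid genes, filled where edgeR called them (FDR under 0.05 and more than 2-fold). The 4 globins lie left of 0 in CD4IKK1 against CD4cre, where no grey point is filled, and the red cell genes Dmtn, Add2, Tmod1 and Car2 lie on the opposite side from the globins in all 3 panels, whereas Gypc, Mkrn1 and Fam210b lie on the same side; the globins change sides in CD4NIK against CD4cre without CD4NIK replicate 3.

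Alas2 was low and uneven. Its counts were 89, 0 and 88 in CD4cre, 41, 18, 109, 144 and 0 in CD4IKK1, and 2, 18 and 471 in CD4NIK. As CPM this was 2.61 ± 2.31 (SD, n = 3), 3.38 ± 3.16 (n = 5) and 11.4 ± 18.9 (n = 3). The libraries at 0 were CD4cre replicate 2 and CD4IKK1 replicate 5, where a count of 0 allows up to 0.146 and 0.135 CPM; this floor, 3 counts, covers counting error only. CD4NIK replicate 3 alone reached 33.2 CPM, 66.7 times the mean of the other CD4NIK libraries. The log2 fold change against CD4cre was 0.37 ± 1.52 in CD4IKK1 and 2.10 ± 1.80 in CD4NIK, and without CD4NIK replicate 3 the latter was -2.37.

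Alas2 did not follow the globins from library to library. Per 1000 globin counts, Alas2 had 1.64, 0 and 1.93 counts in CD4cre, 3.89, 1.51, 11.7, 4.45 and 0 in CD4IKK1, and 0.115, 0.418 and 4.08 in CD4NIK. The highest value fell in CD4IKK1 replicate 3, the library with the lowest globin CPM. Over the 11 libraries the globin genes followed each other with Spearman rho of 0.964 to 1.00, and Alas2 followed them with rho of 0.055 to 0.109. The Pearson r of Alas2 with them was 0.226 to 0.373, and its low counts limit both measures. These correlations describe libraries that share genotypes and differ in depth and cell content, and carry no test.

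Per kilobase of transcript, levels can be set beside each other between genes. In CD4cre, Hbb-bs held 1761 ± 221 CPM per kilobase (SD, n = 3), Hba-a2 897.1 ± 152, Hba-a1 637.6 ± 119, Hbb-bt 181.4 ± 11.7 and Alas2 1.28 ± 1.14. The order Hbb-bs, Hba-a2, Hba-a1, Hbb-bt, Alas2 was found in 10 of the 11 libraries, and in CD4IKK1 replicate 1 Hba-a2 stood above Hbb-bs. The group means followed it too, although the spread between libraries was wide: Hbb-bs and Hba-a2 overlapped within their SDs in CD4IKK1 (579.1 ± 366 and 396.7 ± 142, n = 5) and in CD4NIK (2662 ± 2623 and 1521 ± 1450, n = 3).

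The balance of beta to alpha counts within a library comes from the same globin counts, so it is given as a description with no test. It was 1.46, 1.22 and 1.08 in CD4cre, 0.631, 0.748, 0.676, 1.13 and 1.08 in CD4IKK1, and 1.17, 1.07 and 1.13 in CD4NIK. In CD4IKK1 replicates 1 to 3, which had the lowest globin CPM, alpha counts exceeded beta counts, and in the other 8 libraries beta counts exceeded alpha counts. The mean log2 ratio was -0.27 ± 0.39 (SD, n = 5) in CD4IKK1 and 0.31 ± 0.22 (n = 3) in CD4cre, a difference of -0.58. In CD4NIK it was 0.17 ± 0.07 (n = 3), a difference from CD4cre of -0.15. Over every setting tried the first difference stayed between -0.71 and -0.40.

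Within a chain, the copies kept closer shares. Hba-a1 took 40.6% (95% Wilson interval 39.5% to 41.8%) of alpha counts in CD4IKK1 replicate 1 and 46.3% (45.9% to 46.7%) in CD4NIK replicate 3, the lowest and highest of the 11 libraries. Hbb-bt took 7.47% (6.67% to 8.36%) of beta counts in CD4IKK1 replicate 3 and 12.6% (12.3% to 12.8%) in CD4NIK replicate 3. CD4NIK replicates 2 and 3 were the highest in the Hbb-bt share, at 12.4% and 12.6%, whereas CD4NIK replicate 1 was at 7.98%. The intervals cover counting error only, not the way the counting divided reads between near-identical copies.

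**Figure D3:**
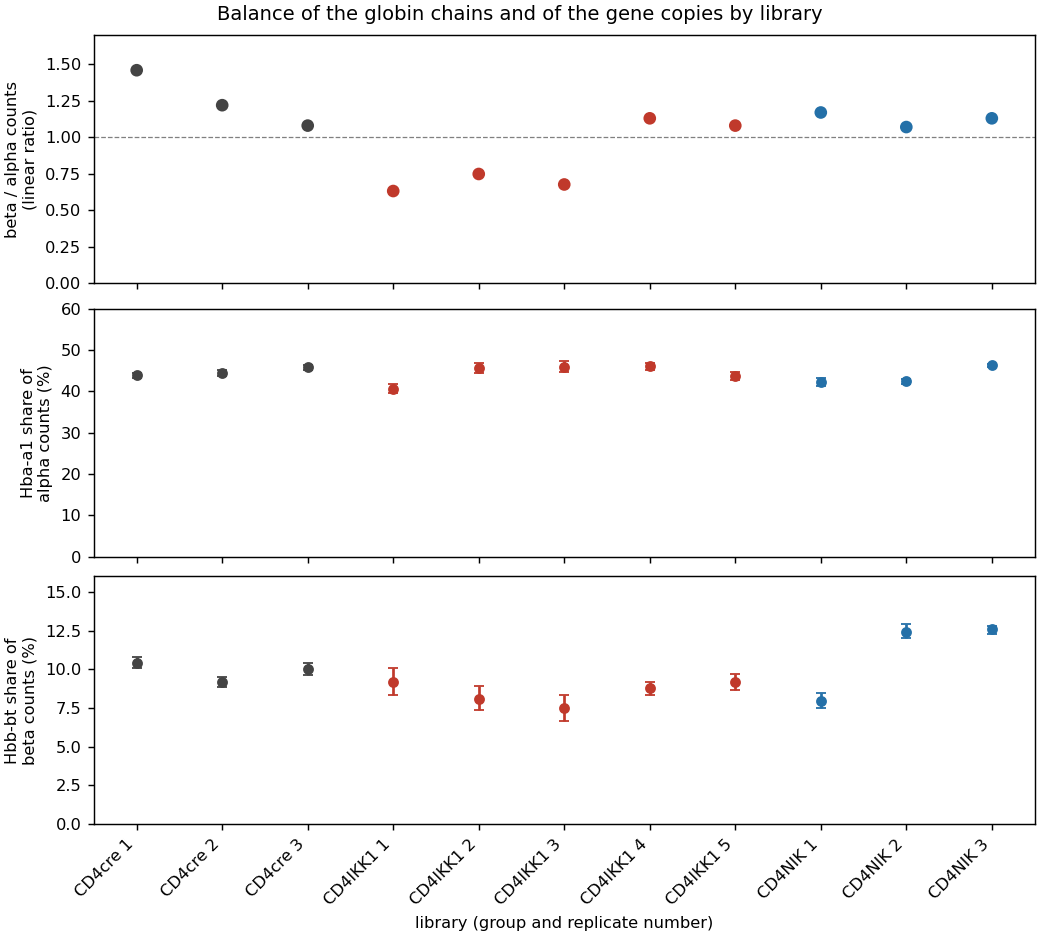
Ratio of beta to alpha globin counts (linear; the dashed line marks equal counts), Hba-a1 share of alpha counts and Hbb-bt share of beta counts (%, with 95% Wilson intervals) in every library, coloured by group. CD4IKK1 replicates 1 to 3 lie under 1 in the ratio, and CD4NIK replicates 2 and 3 have the highest Hbb-bt shares.

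Of the other globin genes, the embryonic ones were at or close to 0 and Cygb and Ngb were expressed. Hbb-bh0, Hbb-bh1 and Hbb-bh2 were at 0 in all 11 libraries, Hba-x, an embryonic alpha-type gene, had 2 counts in CD4NIK replicate 3 and none elsewhere, and Hbb-y, an embryonic beta-type gene, had 18 counts in CD4IKK1 replicate 2 and none elsewhere. Cygb, a globin of fibroblasts and neurons, measured 31.9 to 54.0 CPM in CD4cre, 36.4 to 69.6 in CD4IKK1 and 14.2 to 29.3 in CD4NIK. It fell in CD4NIK against CD4cre (log2 fold change -1.16, FDR 0.0478) and was higher in CD4IKK1 than in CD4NIK (1.43, FDR 0.00235). Ngb, the globin of neurons, measured 1.48 to 39.1 CPM over the 11 libraries and did not pass in any comparison. Mb, the globin of muscle, was at 0 in 4 of the 11 libraries and averaged 1.15 CPM.

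Genes known from red cells and their precursors lay at very different levels. Of the 32 counted genes of the red cell list 2 were at 0 in every library and 7 were under 1 CPM in every library. Slc4a1, the band 3 anion exchanger and main membrane protein of red cells, and Cldn13 were at 0 in all 11 libraries. Klf1 had 1 count in each of 2 libraries and 0 in the other 9. Gata1 reached at most 1.30 CPM, in CD4IKK1 replicate 3. Other genes were well above this: Gypc, glycophorin C, measured 41.6 ± 3.78 CPM (SD, n = 3) in CD4NIK and at most 3.19 CPM in CD4IKK1, and Epor, the erythropoietin receptor, 0.352 to 44.5 CPM over the 11 libraries. These genes were singled out after their values were seen.

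Over the 4 lists of globin, haem synthesis, red cell and erythroid transcription genes, which hold no member, edgeR called 0 of 58 genes tested in CD4IKK1 against CD4cre, where 10 (17.2%) had an unadjusted p under 0.05, close to the 16.6% of all genes. In CD4NIK against CD4cre it called 10 of 55 (18.2%; 3 higher, 7 lower), beside 17.4% of all genes, 10.4% higher and 6.99% lower. In CD4IKK1 against CD4NIK it called 14 of 61 (23.0%; 8 higher, 6 lower), beside 33.3% of all genes. By direction, 12.7% of the list genes were called lower in CD4NIK against CD4cre and 5.45% higher. The 10 of CD4NIK against CD4cre rested on single libraries: 0 were called without CD4cre replicate 2, CD4NIK replicate 2 or CD4NIK replicate 3, and 1 without CD4cre replicate 3. Over all genes the count also moved, from 2649 to between 674 and 3468 with 1 library left out, so the shift was not limited to these lists. Of 23 haem synthesis and iron supply genes, Ppox, the protoporphyrinogen oxidase of haem synthesis, was the only one called in CD4NIK against CD4cre, where it rose (log2 fold change 1.31, FDR 0.0377). In CD4IKK1 against CD4NIK, Ppox (-2.01, FDR 0.00305) and Slc25a38, the mitochondrial glycine carrier that feeds haem synthesis (-3.40, FDR 0.00431), were lower. The median log2 fold change of this list was 0.04 in CD4IKK1 against CD4cre, beside 0.019 over all genes tested. Its most abundant genes were Glrx5 (387.2 CPM over all libraries), which acts in iron-sulfur cluster assembly, Tmem14c, Alad, Cpox and Fech, the ferrochelatase that inserts iron (46.1 CPM), and none of these was called.

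The genes of the red cell membrane and cytosol list, 32 of them counted, did not all move with the globins. Among its most abundant genes were Bnip3l, a mitophagy receptor, at 519.5 CPM over all libraries, Dmtn at 336.7 CPM, Slc25a39 and Car2. The median log2 fold change of the list was -0.05 in CD4IKK1 against CD4cre, -0.68 in CD4NIK against CD4cre and 0.45 in CD4IKK1 against CD4NIK, beside 0.019, -0.024 and 0.057 over all genes tested. In CD4NIK against CD4cre 6 of the 20 tested fell and 0 rose, beside 6.99% of all genes called lower. Among them were Tmod1 (log2 fold change -2.13, FDR 0.0167), which caps actin filaments, Dmtn (-1.31, FDR 0.0231), which bundles actin, and Add2 (-1.13, FDR 0.0246), which joins spectrin to actin. In CD4IKK1 against CD4NIK, where 14.8% of all genes were called higher and 18.5% lower, 5 of 23 were higher, led by Add2 (1.52, FDR 0.000147), and 3 were lower, namely Mkrn1 (-1.26, FDR 0.00134), Gypc (-5.29, FDR 0.00719), and Fam210b (-1.22, FDR 0.0174). Of these, Dmtn and Add2 are also expressed by neurons, whose marker list moved in the same direction; its part in this result was not tested.

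Among erythroid transcription factors and receptors, Myb (log2 fold change 2.25, FDR 0.0281) and E2f2 (1.88, FDR 0.0277) rose in CD4NIK against CD4cre, and 2 of 9 tested were called, beside 17.4% of all genes in either direction and 10.4% higher. Both are also expressed by dividing T cells. The most abundant genes of this list were Ldb1, Bcl11a, Foxo3, Epor and Lmo2, from 76.0 to 9.69 CPM over all libraries. In CD4IKK1 against CD4NIK, Myb was lower (-4.11, FDR 0.0041), and Bcl11a (1.34, FDR 0.00199), which represses embryonic globins, and Lmo2 (1.41, FDR 0.0183), a partner of GATA factors, were higher.

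Most markers of T cells, myeloid cells and kidney tubule had their lowest group mean in CD4IKK1, as the globins had: 15 of 15, 13 of 15 and 12 of 16, beside 6284 of the 16546 genes tested (38%). This held for 7 of 15 B cell, 7 of 16 neutrophil, 5 of 18 platelet, 5 of 14 endothelial, 1 of 13 oligodendrocyte and astrocyte, and 0 of 15 neuronal markers. In CD4IKK1 the 15 myeloid markers summed to 104.7 to 272.9 CPM, against 480.0 to 1953 CPM in CD4cre and 933.6 to 1206 CPM in CD4NIK. In most libraries the largest part of the tubule, platelet and B cell sums was 1 gene each, Calb1, Nrgn and Ighm, of which neurons also express Calb1 and Nrgn. Exceptions included the B cell list where Ighm was lowest, at 0.832 CPM in CD4IKK1. In the highest tubule sum of CD4NIK, 122.4 of 204.5 CPM came from other genes. Over the whole tubule list the sum was 167.3 to 190.7 CPM in CD4IKK1, 156.1 to 247.4 in CD4cre and 107.7 to 204.5 in CD4NIK, and without Calb1 it was 8.96 to 14.8, 20.3 to 86.0 and 18.6 to 122.4 CPM. The platelet list summed to 117.5 to 159.2, 153.6 to 177.4 and 112.8 to 150.6 CPM in the same order of groups, and without Nrgn to 16.9 to 31.6, 63.1 to 76.7 and 49.4 to 74.4 CPM. Without that gene, both lists were lower in every CD4IKK1 library than in any library of the other groups. Much of the platelet sum without Nrgn was again 1 gene, Itgb3, which averaged 8.98 CPM in CD4IKK1, 42.6 in CD4cre and 47.2 in CD4NIK. The B cell list summed to 5.51 to 28.4, 74.3 to 141.4 and 203.6 to 676.1 CPM, and without Ighm to 3.42 to 8.57, 3.45 to 12.7 and 11.7 to 45.5 CPM, where CD4IKK1 and CD4cre overlapped. The part of these cells in the globin levels was not tested.

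**Figure D4:**
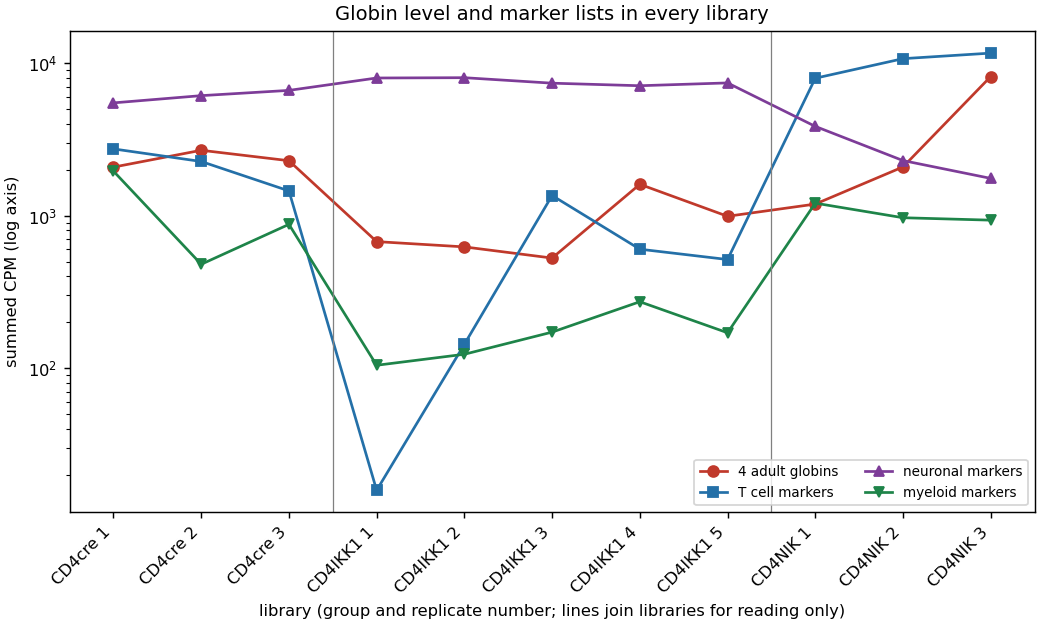
Summed level (CPM, log axis) of the 4 adult globins and of 3 gene lists in every library; vertical lines part the groups, and lines join libraries for reading only. The globins are lowest in CD4IKK1 replicates 1 to 3 and highest in CD4NIK replicate 3, and the neuronal list is lowest in CD4NIK.

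The genes most like the summed globins over the 11 libraries, by Spearman rho of log2 CPM, were Als2cl (0.955), Veph1 (0.936) and Klk1 (0.936), followed by S100g, Glipr1, Traj27, Tra2a, Cited4, Cd27 and Anks1, the last at 0.900. Klk1, a kallikrein made in the distal kidney tubule, averaged 144.7 CPM in CD4cre, 1.63 CPM in CD4IKK1 and 72.2 CPM in CD4NIK. Cd27, a receptor of lymphocytes, averaged 11.1, 2.41 and 33.1 CPM in the same order. For Alas2 the nearest genes were Fsbp (0.855), BC085271, Pdcd2l, Pex11g and Pgbd5 (0.815). The members themselves were left out of both rankings. These likenesses describe 11 libraries and carry no test.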

How the data were processed

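RNA of sorted renal CD4+ T cells was amplified with a SMARTer kit and sequenced in 11 libraries, 1 per biological replicate of the labels. The authors trimmed reads with Trimmomatic, ran kallisto and deposited estimated counts per gene symbol, without normalization. The study's methods name GRCm39 and its processing notes mm10, so the build behind the counts is uncertain. Coordinates and sequences here are from GRCm39.

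Estimated counts were rounded to whole numbers. CPM used TMM factors. edgeR 4.0.16 (R 4.3.3; filterByExpr, robust quasi-likelihood F test, Benjamini-Hochberg) called genes at FDR under 0.05 and more than 2-fold. CD4IKK1 and CD4NIK were each fitted with CD4cre alone, and CD4IKK1 against CD4NIK on all 11 libraries. Log2 CPM used a prior count of 2. The code was tested on simulated data: 71.5%, 65.0% and 65.0% of 200 genes changed by a log2 of 2 were recovered in the 3 comparisons, in the order above, with 8, 13 and 7 false calls.

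Members and gene lists were chosen with earlier results of these data known. Named were the members, up to 3 called genes per list, direction and comparison by FDR, the 5 most abundant genes of each erythroid list, and the genes most like the globins (10) and Alas2 (5). No 2 of the 11 libraries held identical values (0 of 55 pairs). The p-values measure the spread between these libraries. Alternatives were DESeq2 1.42.0, other scalings and filters, all libraries in 1 fit, a replicate block, the members left out of library sizes and each library left out. Some list members are not reported here by name, and the list counts include them.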

Additional observations from a re-analysis of the deposited data

Results flagged for a closer look

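In CD4IKK1 replicate 1, the log2 of the summed CPM of the 15 haem and haemoglobin clearance genes stood apart from the other CD4IKK1 libraries. Fth1 alone made up 9219 of the 9691 CPM of this sum. The gap to the nearest library was 0.727 of the group's range, above the critical value of 0.71 for 5 libraries. Chance marks about 1 in 20 groups in this way, and 20 items were looked at.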

How the results depend on the processing

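Genes called in CD4IKK1 against CD4cre numbered 0 in the reported edgeR fit, 486 with DESeq2, 1 with RLE and 1 with upper-quartile factors, 48 with 1 count in any library as the filter, 159 with 10 counts in every library and 129 with all 11 libraries in 1 fit. With CD4IKK1 replicates 1 and 2 left out, an alternative chosen after seeing the data, 36 were called, and with 1 library left out 0 to 23. Replicate numbers did not pair the libraries (correlations of deviations from -0.113 to 0.077). With a replicate block 3 genes were called in CD4IKK1 against CD4cre, of which 2 were Hbb-bs (-2.37) and Hbb-bt (-2.66); in CD4IKK1 against CD4NIK the block kept the calls of Hbb-bs and Hbb-bt and not those of Hba-a1 and Hba-a2. It gave 1185 genes, against 2649 without it, in CD4NIK against CD4cre, with 2 erythroid genes against 10. Leaving out 1 library gave 674 to 3468 genes and 0 to 15 erythroid genes in CD4NIK against CD4cre; the erythroid count was 0 without CD4cre replicate 2, CD4NIK replicate 2 or CD4NIK replicate 3, and 1 without CD4cre replicate 3. In CD4IKK1 against CD4NIK it gave 4116 to 5556 genes and 12 to 17 erythroid genes. The cause of these shifts was not tested. The log2 fold changes of the 4 globins in CD4IKK1 against CD4cre stayed below 0 under every alternative, from -2.66 to -1.02. In the same comparison Alas2, at most 144 counts in a library of these groups, ranged from -0.21 to 1.20, so its direction is not set. The beta to alpha difference between CD4IKK1 and CD4cre ranged from -0.70 to -0.47 with 1 library left out, and between CD4NIK and CD4cre from -0.25 to -0.03.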

Other observations

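Genes that clear haem and haemoglobin were also measured. Of 12 tested in CD4IKK1 against CD4NIK, 4 were lower and 1 higher by edgeR's quasi-likelihood test, beside 18.5% of all genes called lower and 14.8% higher. Of 13 myeloid markers tested 9 were lower in the same comparison (median log2 fold change -1.96); their part in these values was not tested. Nfe2l2, a transcription factor of the oxidative stress response, was lower (log2 fold change -3.72, FDR 0.000115), as were Ftl1, the ferritin light chain (-2.25, FDR 0.000384), and Hmox1, the haem oxygenase that breaks down haem (-3.17, FDR 0.0142). Lrp1, the receptor for haem bound to haemopexin, was higher (1.12, FDR 0.0152). In CD4NIK against CD4cre, Nfe2l2 rose (1.87, FDR 0.0390), 1 of 11 tested, beside 10.4% of all genes called higher. In CD4IKK1 against CD4cre 0 of 12 were called, as were 0% of all genes, with 4 at an unadjusted p under 0.05, beside 16.6% of all genes.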
